A study of Mus musculus with 15 samples.

Results

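Within 2 of the 5 conditions of an experiment on mouse embryonic fibroblasts, replicate libraries fell into separate sets, and the difference between these sets is described here. Set A holds OboxA1 replicate 3 and control replicate 1, and set B holds OboxA1 replicates 1 and 2 and control replicates 2 and 3, so that 6 of the 15 libraries of the series were compared (2 in set A and 4 in set B). The sets were chosen from the expression values of these same libraries, as they appeared in a principal component analysis. All values of set A against set B are therefore given as a description, with no test. The sample labels name neither a batch nor a date for any library, and the study's methods say only that experiments were matched by date.

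The OboxA1 cells were electroporated with a plasmid that carries the homeobox gene OboxA1 (listed as Obox6) with a C-terminal V5 tag under a cytomegalovirus promoter, and the control cells with the empty vector. Both plasmids also express a green fluorescent protein, and green cells were sorted 48 h later. All libraries came from primary fibroblasts of C57Bl/6 embryos at passage 2, bought from 1 supplier, and were made from polyadenylated RNA. The labels do not say whether the replicates came from separate cultures, so the spread between them may be technical. The other 9 libraries (CrxOS, OboxA4 and OboxA7, 3 each) enter only where named. Levels are given as CPM, read counts scaled by the size of each library, and differences are log2 values of set A over set B from a model with a term for condition.

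Embryonic fibroblasts are a mixed population of mesenchymal cells from the body wall and limbs. Cultured fibroblasts keep a record of the place in the body they came from in the set of Hox genes they express, since Hox genes are switched on in order along the body and limb axes. Fibroblasts also respond to interferon, through STAT and IRF transcription factors, with a group of antiviral genes, and they make most of the extracellular matrix of connective tissue.

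The 6 libraries had 29541541 to 36435455 counts each, and counts assigned to Obox6 numbered 2009 in the OboxA1 library of set A, against 5956 and 4057 in those of set B and 0 in each of the 3 control libraries. Each control library of either set thus lacked the transfected gene, and the OboxA1 library of set A held the fewest of its reads. Of 22063 gene rows, 14063 had enough counts to be compared. Neither pair of replicates within set B was a repeat deposit of 1 library. OboxA1 replicates 1 and 2 had a chi-square of 3.71 per gene and control replicates 2 and 3 one of 4.44. A repeat would give about 1.

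By the number of genes past 2-fold, replicates of the same condition differed more between the sets than OboxA1 differed from control within a set. Pairs of libraries of the same condition from different sets differed more than 2-fold (log2 CPM, prior count 2) at 953 to 1170 genes over 4 pairs. Pairs of different conditions within a set differed at 549 to 872 genes over 5 pairs, and the only such pair of set A gave the 549. The pairs share libraries, and the sets were chosen from these same values. The larger number between the sets therefore follows in part from that choice. The median absolute log2 difference over all genes overlapped between these 2 kinds of pair. It was 0.169 to 0.208 for the same condition in different sets, and 0.165 to 0.195 for different conditions within a set. The 2 pairs of replicates within set B differed at 198 genes (OboxA1) and 236 genes (control).

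**Figure D1:**
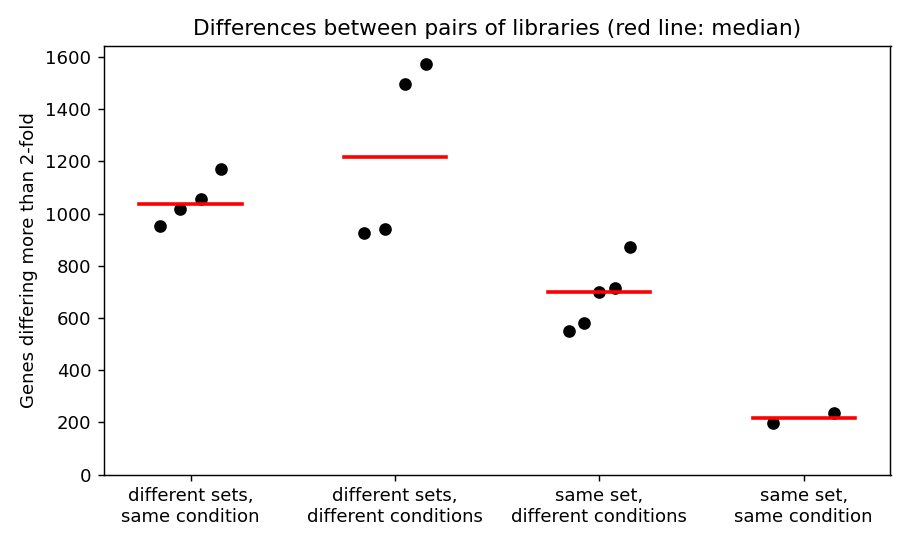
Number of genes, of 14063, that differ more than 2-fold between 2 libraries, for each of the 15 pairs of the 6 libraries, with pairs grouped by whether set and condition are shared (points, pairs; red line, median). The 4 pairs of the same condition from different sets lie between 953 and 1170 genes, above all 5 pairs of different conditions within a set, which lie between 549 and 872. The sets were chosen from these same values, so this order follows in part from the choice.

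A gene was counted as different between the sets where the fitted difference exceeded 2-fold and both set A libraries lay beyond all 4 set B libraries. By this rule 781 genes (5.55% of those compared) were counted, 379 higher in set A (2.70%) and 402 lower (2.86%). Without the fold threshold, both set A libraries lay above all set B libraries at 2363 genes (16.8%) and below them at 2306 (16.4%), together 33.2%. The median difference over all genes was 0.01 on the log2 scale, and the 5th and 95th percentiles lay at -0.76 and 0.77. Most counted genes were expressed at low levels. With genes in 5 bins of equal size by mean CPM, the lowest bin (up to 3.10 CPM) held 236 of the 379 higher and 191 of the 402 lower genes, and the highest held 18 and 29. Over 5 such bins of gene length the median difference was between -0.01 and 0.02.

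The genes with the largest differences were of several kinds. Sla, a Src-like adaptor protein of blood cells, led those higher in set A at 3.25 ± 0.44 (SE), and had 2.09 CPM in OboxA1 and 0.464 CPM in control of set A, against 0.302 and 0.0677 CPM in OboxA1 and 0.0587 and 0.06398 CPM in control of set B. Its set A OboxA1 library was far above the set A control library. Tfpi2, a secreted serine protease inhibitor, had 37.5 CPM in OboxA1 and 24.2 CPM in control of set A, against 5.85 and 5.38 CPM in OboxA1 and 4.61 and 4.61 CPM in control of set B (log2 2.57 ± 0.10 (SE)). The groups did not overlap and each set B library was below 6 CPM. Olr1, a receptor for oxidized lipoprotein, had 18.6 and 9.796 CPM in set A (OboxA1, control) and 2.17, 1.93, 2.23 and 1.86 CPM in set B (OboxA1, OboxA1, control, control) (log2 2.74). Others among the 12 leading genes were Kcnk12, a potassium channel (3.21), Cmah, an enzyme of sialic acid synthesis (2.83), Acsbg1, an acyl-CoA synthetase (2.64), Fgd5, an exchange factor for Cdc42 (2.60), the transcriptional repressor Bcl6b (2.56) and LOC102639543 (3.14). Sp110 (3.07), Cxcl9 (2.80) and Slfn5 (2.68) complete the 12. These 3 genes are known to be induced by interferons.

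Among genes lower in set A, Penk, which encodes the opioid peptide precursor proenkephalin, stood at 117 CPM in OboxA1 and 147 CPM in control of set A, against 1090.2 and 1036 CPM in OboxA1 and 1128 and 1058 CPM in control of set B (log2 -3.04 ± 0.09 (SE)). The 4 set B libraries were alike and both set A libraries were far below them. The fast skeletal myosin heavy chains Myh1 and Myh2, neighbours on chromosome 11 that are alike in sequence and may share reads, had differences of -4.34 and -4.58. Myh1 had 0.61 CPM in OboxA1 and 0.145 CPM in control of set A, against 12.96 and 13.03 CPM in OboxA1 and 2.99 and 2.11 CPM in control of set B, so that within both sets OboxA1 was above control. Tfap2b, a transcription factor of neural crest and limb, had 7.03 and 12.3 CPM in set A (OboxA1, control) and 58.7, 69.9, 85.5 and 73.4 CPM in set B (OboxA1, OboxA1, control, control) (log2 -2.91). Also among the 12 were the neuropeptide Adcyap1 (-3.64), the calcium channel subunit Cacna2d3 (-3.29), the synaptic adhesion protein Lrrtm3 (-3.25) and the glutamate receptor subunit Grin2b (-3.15). Galnt9, a glycosyltransferase (-3.11), Hpgd, which inactivates prostaglandins (-3.03), the nuclear receptor Esrrg (-2.98) and Sbspon (-2.92) complete the 12. Hpgd was the least even of them, with differences of -4.48 in OboxA1 and -1.68 in control.

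**Figure D2:**
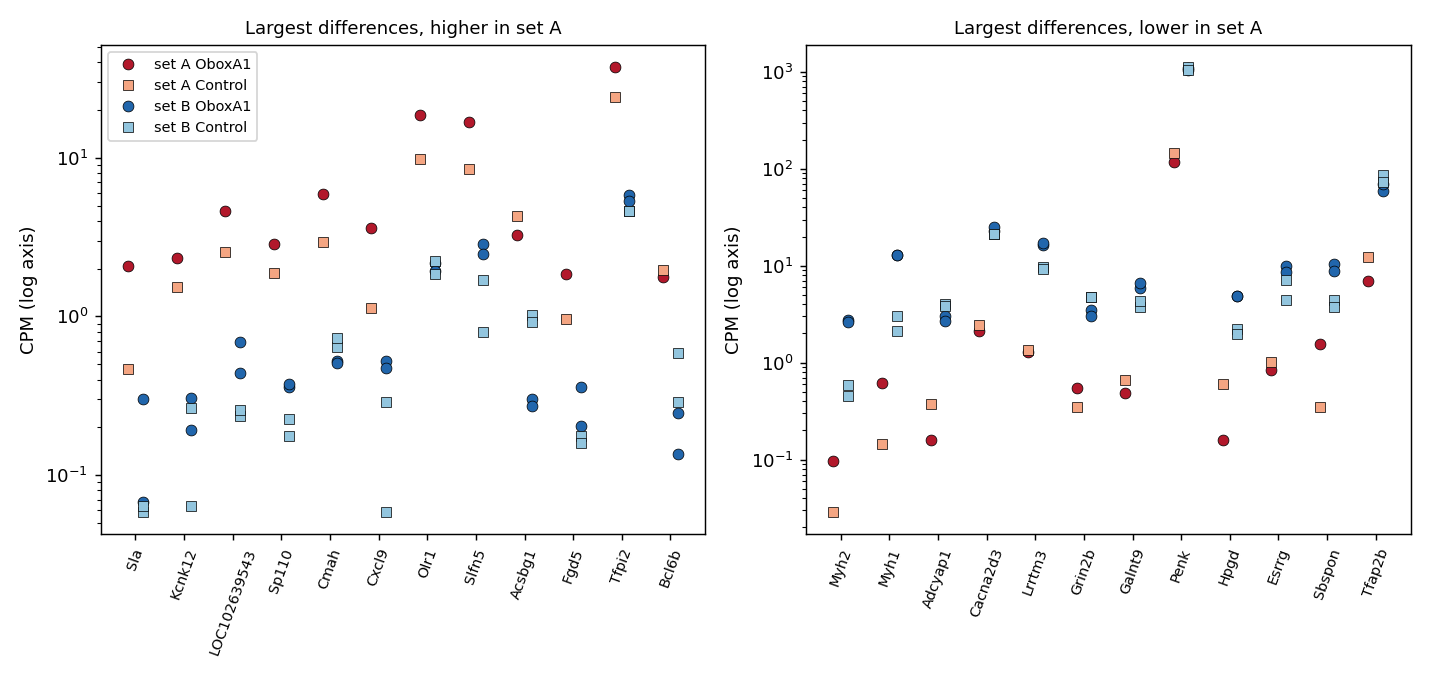
Level (CPM, logarithmic axis) in each of the 6 libraries of the 12 genes with the largest difference in each direction, among counted genes with a mean of at least 1 CPM in the higher set (red and orange, set A; dark and light blue, set B; circles, OboxA1; squares, control). Both set A points lie beyond all 4 set B points for each gene, as the counting rule requires, and Penk spans 117 CPM to 1128 CPM.

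Genes of high level also differed. Of the counted genes, 54 had a mean of at least 100 CPM in the higher set, and those named in this paragraph were picked from them after their values were seen. Thbs2 (thrombospondin 2), a matrix protein that restrains blood vessel growth, had 1897 CPM in OboxA1 and 828 CPM in control of set A, against 476 and 415 CPM in OboxA1 and 341 and 314 CPM in control of set B (log2 1.73). Postn (periostin, log2 1.38) and Tnc (tenascin C, log2 1.19), matrix proteins of healing and developing connective tissue, were also higher in set A. Postn had 4663 CPM in OboxA1 and 1988 CPM in control of set A, against 1926 and 1548 CPM in OboxA1 and 862 and 721 CPM in control of set B, and its set A control library lay only just above the highest set B library. Lower in set A were Lama5, a laminin chain of basement membranes (-2.13), the water channel Aqp1 (-2.05), the fibrillin Fbn2 (-1.63) and Cav1, the coat protein of caveolae (-1.04). Aqp1 had 116 and 169 CPM in set A (OboxA1, control) and 567, 587, 562 and 619 CPM in set B (OboxA1, OboxA1, control, control).

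Hox genes split by cluster and by position within a cluster. Among 39 Hox genes, 36 could be compared, 17 of which were counted higher in set A (47.2%, against 2.70% of all genes) and 4 lower (11.1%, against 2.86%). All 7 Hoxa and Hoxd genes of paralogue groups 10 to 13, which pattern the far end of the limb and the genital region, were lower in set A, with a median of -1.30 (range -1.997 to -0.75) and 4 counted. Of the 12 Hoxa and Hoxd genes of groups 1 to 9, 10 had a positive difference and 4 were counted higher (median 0.59). All 8 Hoxb genes had a positive difference (median 1.20, 7 counted). So did the 5 Hoxc genes of groups 4 to 9 (median 1.04, 3 counted) and the 4 Hoxc genes of groups 10 to 13 (median 1.48, 3 counted).

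Hoxd13, needed for the digits, had 33.9 CPM in OboxA1 and 53.4 CPM in control of set A, against 149.7 and 168 CPM in OboxA1 and 149 and 139 CPM in control of set B, a log2 difference of -1.80 ± 0.16 (SE). The 4 set B libraries lay close together and both set A libraries were far below them. Hoxd12 (-1.997), Hoxa13 (-1.65) and Hoxd11 (-1.30) were the other 3 counted lower. Hoxb9 had 108 CPM in OboxA1 and 77.9 CPM in control of set A, against 59.6 and 51.9 CPM in OboxA1 and 31.8 and 30.8 CPM in control of set B (log2 1.14 ± 0.09 (SE)). In set B its level was higher in OboxA1 than in control. Hoxc6 had 52.5 CPM in OboxA1 and 49.4 CPM in control of set A, against 31.1 and 28.4 CPM in OboxA1 and 14.4 and 12.6 CPM in control of set B (log2 1.35 ± 0.19 (SE)), and the largest positive differences were those of Hoxc11 (1.71), Hoxc13 (1.61) and Hoxb4 (1.56). The summed CPM of the 36 compared Hox genes overlapped between the sets, at 514.9 to 522 in set A and 434 to 597 in set B. The clusters lie on chromosomes 6 (Hoxa, 52155367 to 52260880), 11 (Hoxb, 96271330 to 96354020), 15 (Hoxc, 102921131 to 103036856) and 2 (Hoxd, 74668225 to 74748271) of GRCm38.p6. They also hold antisense genes, and with no strand setting given for the counting, reads of a gene and of its antisense partner cannot be told apart. With OboxA1 replicate 3 as the only set A library (without control replicate 1), 4 Hox genes were counted higher and 7 lower.

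**Figure D3:**
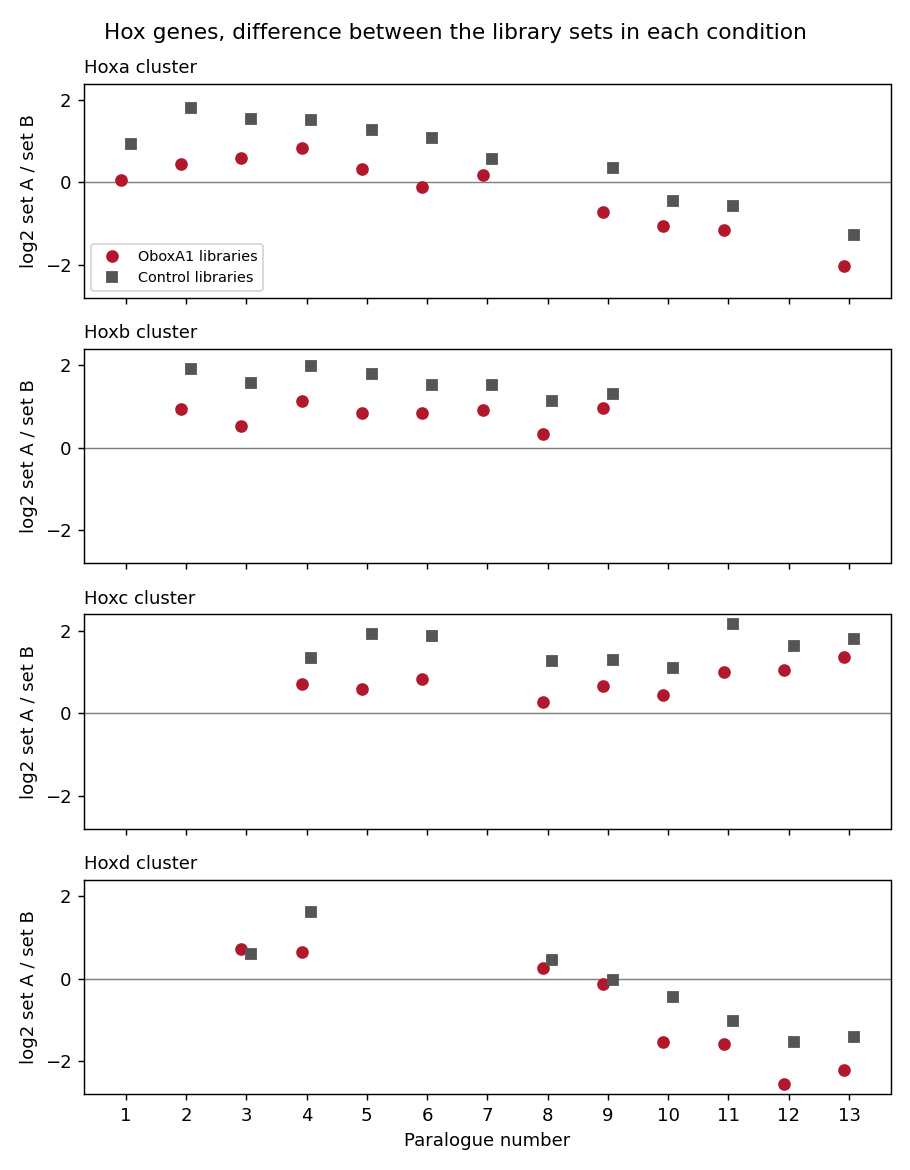
Log2 difference of set A over set B (log2 CPM, prior count 2) for 36 Hox genes by paralogue number, 1 panel per cluster, in the OboxA1 libraries (red circles) and the control libraries (grey squares). All values are below 0 from paralogue 10 onward in the Hoxa and Hoxd clusters in both conditions (Hoxd13 -2.22 in OboxA1 and -1.43 in control), and all values of the Hoxb and Hoxc clusters lie above 0.

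Other transcription factors and signals of body position followed no single direction. Of 93 such factors compared, 10 were counted higher in set A (10.8%, against 2.70% of all genes) and 15 lower (16.1%, against 2.86%). Without control replicate 1 those higher numbered 4, and without OboxA1 replicate 3 those lower numbered 8. Msx1, a homeobox gene of limb and face mesenchyme, had 6.87 CPM in OboxA1 and 6.61 CPM in control of set A, against 59.2 and 57.1 CPM in OboxA1 and 22.8 and 21.02 CPM in control of set B (log2 -2.41 ± 0.25 (SE)). The 2 set A values were nearly alike, whereas in set B OboxA1 was above control. Lhx2, a LIM homeobox gene of the limb bud (-2.28), and Foxl1, a forkhead gene of gut mesenchyme (-1.98), were also lower in set A. Zic1, a zinc finger gene of the neural tube and trunk mesoderm, was higher (1.74).

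Of 48 Wnt ligands, receptors and inhibitors, 4 were counted higher in set A (8.33%, against 2.70% of all genes; 2 genes without OboxA1 replicate 3) and 7 lower (14.6%, against 2.86%). Lower were the ligands Wnt16 (-2.80) and Wnt10a (-1.81) and the Wnt agonist Rspo2 (-1.74), which had 27.6 CPM in OboxA1 and 27.8 CPM in control of set A, against 123 and 123 CPM in OboxA1 and 73.5 and 68.2 CPM in control of set B. The inhibitor Sfrp4 was higher (1.88). Of 47 TGF-beta and BMP genes, 4 were counted higher and 4 lower (8.51% each). The ligand Bmp4, which acts in limb and skeletal patterning, had 27.5 CPM in OboxA1 and 34.9 CPM in control of set A, against 121 and 138 CPM in OboxA1 and 87.2 and 85.98 CPM in control of set B (log2 -1.75 ± 0.18 (SE)). The BMP family ligand Bmp3 (-2.17) and the BMP antagonists Chrdl1 (-1.94) and Chrd (-1.30) were lower too. Those counted higher included the activin subunits Inhba (1.21) and Inhbb (1.21) and the ligand Gdf10 (1.29), named here after their values were seen.

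Interferon-stimulated genes were higher in set A almost throughout. Of 56 compared, 53 had a positive difference, 48 lay above all set B libraries in both set A libraries (16.8% of all genes did), and 11 exceeded 2-fold and were counted (19.6%, against 2.70%), with 0 counted lower. The median difference was 0.57, with 0.44 in OboxA1 and 0.68 in control. Their summed level was 7022 to 7143 CPM in set A and 4749 to 5541 CPM in set B, so the sums did not overlap. Trim30a, a regulator of innate immune signalling, had 129 CPM in OboxA1 and 115 CPM in control of set A, against 56.2 and 50.6 CPM in OboxA1 and 39.1 and 32.7 CPM in control of set B (log2 1.48 ± 0.10 (SE)). Oas3, an antiviral oligoadenylate synthetase, had 8.64 CPM in OboxA1 and 13.6 CPM in control of set A, against 4.23 and 4.26 CPM in OboxA1 and 4.14 and 3.998 CPM in control of set B (log2 1.40 ± 0.16 (SE)). Tgtp2, an interferon-induced GTPase that may share reads with its close copy Tgtp1, had 11.6 CPM in OboxA1 and 10.4 CPM in control of set A, against 6.26 and 6.46 CPM in OboxA1 and 2.64 and 2.72 CPM in control of set B (log2 1.39 ± 0.21 (SE)). In set B its OboxA1 libraries lay above the control libraries. The guanylate-binding protein Gbp4 differed by 1.45 at levels under 2 CPM.

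A known feature of many such genes is the interferon-stimulated response element, bound by STAT and IRF factors, whose letters are GAAANNGAAA on either strand. RefSeq promoters (250 bases before to 50 after the start, GRCm38.p6) were at hand for 43 of the 56 genes, and 22 of these 43 (51.2%) held the letters, where 3.59% of the promoters of all 10520 compared genes with a promoter did. Genes with the letters had a median difference of 0.64 (21 of 22 positive), and those without 0.45 (20 of 21 positive). The stretches of the 3 counted genes with values above, and of Isg15, an abundant antiviral ubiquitin-like protein that did not reach 2-fold (0.38), are given so that the shared letters can be seen. Each runs 5′ to 3′ along the gene and ends before its start site, with the matching letters in capitals (TTTCNNTTTC is the same element on the other strand).
Trim30a (chr7:104465195-104465254, minus strand): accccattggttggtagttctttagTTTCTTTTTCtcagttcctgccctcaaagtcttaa
Oas3 (chr5:120777700-120777759, minus strand): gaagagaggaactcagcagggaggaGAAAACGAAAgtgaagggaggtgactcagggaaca
Tgtp2 (chr11:49064248-49064307, minus strand): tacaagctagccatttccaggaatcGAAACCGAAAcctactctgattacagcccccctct
Isg15 (chr4:156200850-156200921, minus strand): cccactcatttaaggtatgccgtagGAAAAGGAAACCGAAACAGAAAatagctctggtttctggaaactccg
The Trim30a, Oas3 and Tgtp2 stretches hold 1 match each and that of Isg15 holds 3, which overlap. A match describes the letters and was not tested as a binding site.

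**Figure D4:**
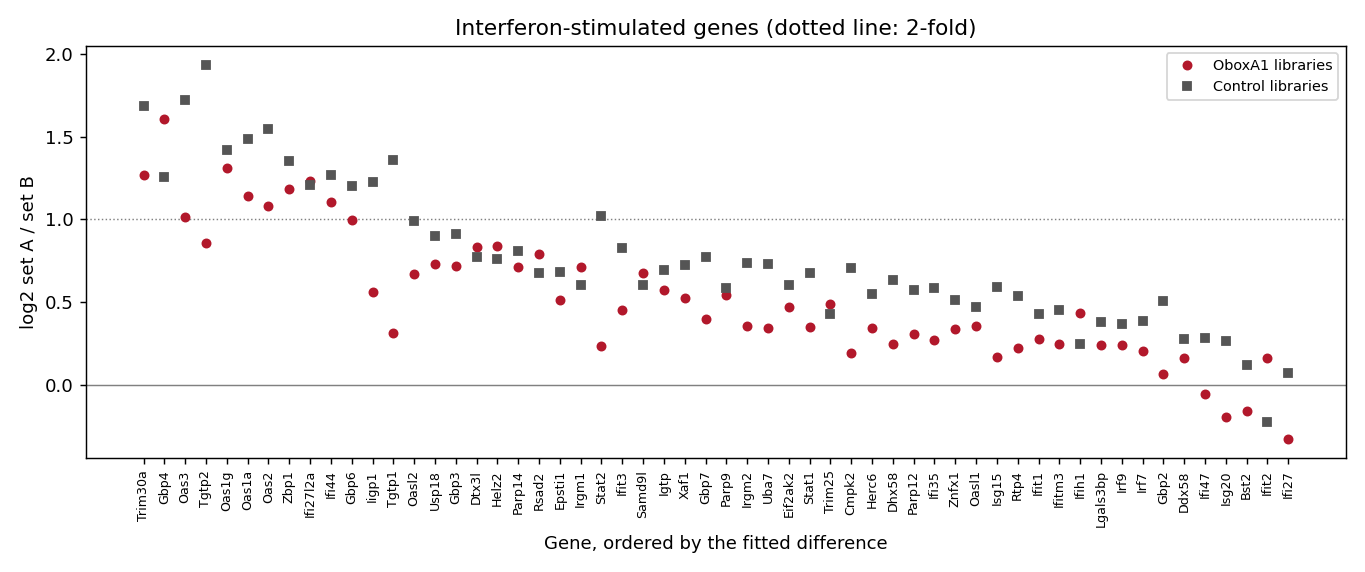
Log2 difference of set A over set B (log2 CPM, prior count 2) of 56 interferon-stimulated genes in the OboxA1 libraries (red circles) and control libraries (grey squares), ordered by the fitted difference (dotted line, 2-fold). Most points lie above 0 in both conditions, and the 11 furthest left, from Trim30a (1.48), reach 2-fold by their fitted difference, though not each of their points does (Tgtp2 0.86 in OboxA1).

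Genes of antigen presentation lay on the same side. Of 22 genes of MHC class I presentation, 18 had a positive difference (51.4% of all genes did), 16 lay above all set B libraries (16.8% of all genes) and 2 were counted higher (9.09%, against 2.70%). H2-Q6 had 21.4 CPM in OboxA1 and 15.04 CPM in control of set A, against 4.26 and 2.98 CPM in OboxA1 and 2.79 and 3.84 CPM in control of set B (log2 2.37 ± 0.16 (SE)), and H2-Q7 differed by 1.70. These class I genes are near copies and may share reads. Of 35 cytokines and chemokines, 7 were counted higher (20.0%, against 2.70% of all genes) and 2 lower (5.71%, against 2.86%). The chemokines Ccl11 (1.97) and Ccl8 (1.96) and the alarmin Il33 (1.95) were higher in set A. Il33 had 10.8 and 5.85 CPM in set A (OboxA1, control) and 2.22, 1.73, 2.88 and 1.503 CPM in set B (OboxA1, OboxA1, control, control). Markers of macrophages and blood cells remained low in both sets. The 6 compared had a summed level of 10.3 to 12.3 CPM in set A and 9.81 to 10.8 CPM in set B. Of 15 such markers with a gene row, 11 were below 1 CPM in all 6 libraries. Their part in these values was not tested.

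Matrix genes were counted in both directions. Of 41 collagens, 4 were counted higher (9.76%, against 2.70% of all genes) and 1 lower (2.44%, against 2.86%; 2 lower without OboxA1 replicate 2 or 3, and 3 without control replicate 2), with a median difference of 0.10. Col7a1, which anchors epithelium to the dermis, had 163 CPM in OboxA1 and 121 CPM in control of set A, against 72.6 and 66.6 CPM in OboxA1 and 52.02 and 44.9 CPM in control of set B (log2 1.27 ± 0.07 (SE)), and Col24a1 (1.83) and Col14a1 (1.67) were higher too. Col10a1, the collagen of hypertrophic cartilage, had 6.65 and 7.01 CPM in set A (OboxA1, control) and 33.7, 33.5, 22.1 and 20.4 CPM in set B (OboxA1, OboxA1, control, control) (log2 -1.96). Of 73 elastic fibre, proteoglycan and matricellular genes, 6 were counted higher (8.22%; 10 genes without control replicate 1) and 8 lower (11%), the lower ones including the cartilage and bone proteins Comp (-2.12), Hapln1 (-2.11) and Omd (-2.02). Of 38 metalloproteases and their inhibitors, 4 were counted higher, with the gelatinase Mmp9 at 2.18, and 2 lower, where 2.70% of all genes were counted higher and 2.86% lower.

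Few genes of cell growth reached 2-fold between the sets. Of 50 DNA replication genes, 54 mitosis genes and 79 cytoplasmic ribosomal proteins, 0 were counted in either direction (5.55% of all genes were; no test was run), and their medians were 0.06, -0.07 and -0.01. The share over all genes was not matched to level, and counted genes were rarer at high levels. In the highest of 5 bins by mean CPM, 18 of 2813 genes were counted higher and 29 lower. For mitosis genes the median was -0.20 in OboxA1 and 0.10 in control. Of 35 genes of glycolysis and hypoxia, 21 lay above all set B libraries (16.8% of all genes did), at a median difference of 0.25, and 1 was counted, Adm (adrenomedullin), which was lower (-1.02) and was not counted without OboxA1 replicate 3, OboxA1 replicate 2 or control replicate 3. Of 22 replication-dependent histone genes compared, 19 had a positive difference (median 0.48) at low levels, with a summed 83.0 to 85.0 CPM in set A and 54.4 to 62.4 CPM in set B. Their transcripts mostly lack a poly(A) tail, and the libraries were made from polyadenylated RNA.

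Most fibroblast markers were high in all 6 libraries, with 0 of 17 counted between the sets (5.55% of all genes were, a share not matched to level) and a median difference of 0.02. That median was 0.43 in OboxA1 and -0.08 in control. Without control replicate 1, 3 were counted higher. Vim had 4810 and 5583 CPM in set A (OboxA1, control), against 5869, 6102, 6536 and 6644 CPM in set B (OboxA1, OboxA1, control, control). The Y-linked genes Ddx3y, Eif2s3y, Kdm5d and Uty were present in all 6 libraries, with differences of -0.12, 0.04, 0.01 and 0.27. Each library thus held RNA of male cells. Xist was not analysed here, since only protein-coding genes were counted.

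Markers of other cell types differed in part, against shares of 2.70% counted higher and 2.86% lower over all genes. In set A, 4 of 9 epithelial markers were counted lower (44.4%), with a summed level of 18.6 to 44.6 CPM in set A and 47.4 to 89.9 CPM in set B. Krt7 (-2.71), Trp63 (-2.32) and Krt18 (-1.51) were among them, and Krt15 had 0.0321 and 0 CPM in set A (OboxA1, control) and 0.714, 0.609, 0.558 and 0.576 CPM in set B (OboxA1, OboxA1, control, control). Of all 17 epithelial markers listed, 13 were below 1 CPM in all 6 libraries. Krt18 is also a mesothelial marker. Of 10 mesothelial markers compared, 2 were counted higher (20%), Bnc1 (1.66) and Wt1 (1.48), and 2 lower (20%), Msln (-1.86) and Krt18. Of 7 endothelial markers 2 were counted lower (28.6%), Erg (-2.64) and Tek (-1.97), with sums of 18.2 to 22.9 CPM in set A and 34.7 to 39.4 CPM in set B. Of 7 adipocyte markers 3 were counted lower (42.9%), Plin4 (-2.13), Fabp4 (-1.44) and Pparg (-1.28), with sums of 77.7 to 86.0 CPM in set A and 112 to 123 CPM in set B.

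Of 15 skeletal muscle markers, 10 had a positive difference, 2 were counted higher (13.3%) and 3 lower (20.0%). The acetylcholine receptor subunit Chrna1 (1.74) and the muscle cadherin Cdh15 (1.38) were higher, and Myh1, Myh2 and the troponin Tnni2 (-1.63) were lower. Their sums were 113 to 121 CPM in set A and 60.5 to 91.4 CPM in set B, mostly of the actin Acta1 (0.99). Of 28 muscle markers with a gene row, 3 had a count of 0 in all 6 libraries, among them the master regulators Pax7 and Myod1. Below 1 CPM in all 6 libraries were 17 of the 28. The list holds other muscle regulators, whose levels are not given here. Of 14 chondrocyte and bone markers, 9 had a positive difference, 1 was counted higher (7.14%; 0 without control replicate 1), the bone transcription factor Sp7 (1.14), and 2 lower (14.3%; 4 genes without OboxA1 replicate 3), Comp and the cartilage factor Sox6 (-1.72). Their sums were 2012 to 2112 CPM in set A and 1263 to 1949 CPM in set B, mostly of Spp1 (osteopontin, 0.47). Of 8 pericyte markers 1 was counted higher (12.5%), Ndufa4l2 (1.52), with sums of 459 to 559.7 CPM in set A and 425 to 491 CPM in set B, which overlapped. Without OboxA1 replicate 1 the pericyte markers counted higher numbered 3, and without OboxA1 replicate 3 they numbered 2.

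Neural crest and Schwann cell markers went both ways, with 4 of 11 counted higher (36.4%) and 2 lower (18.2%). The receptor Ngfr had 3.53 CPM in OboxA1 and 2.14 CPM in control of set A, against 0.604 and 0.745 CPM in OboxA1 and 0.382 and 0.352 CPM in control of set B (log2 2.45 ± 0.21 (SE)), and the transcription factor Sox10 had 1.06 and 0.493 CPM in set A (OboxA1, control) and 0.0275, 0.0338, 0.0881 and 0.192 CPM in set B (OboxA1, OboxA1, control, control). Sox2, a stem cell and neural factor, had 1.12 CPM in OboxA1 and 2.03 CPM in control of set A, against 5.38 and 7.11 CPM in OboxA1 and 14.9 and 16.9 CPM in control of set B (log2 -2.78 ± 0.19 (SE)). Of 8 neuronal markers, 5 had a positive difference (median 0.18) and 1 was counted lower (12.5%), Stmn2, which had 16.3 and 22.8 CPM in set A (OboxA1, control) and 62.1, 68.8, 83.6 and 88.9 CPM in set B (OboxA1, OboxA1, control, control) (log2 -1.96). Their sums were 128 to 129 CPM in set A and 196 to 220.5 CPM in set B. In bulk RNA, fewer cells of a type and less RNA per cell cannot be told apart.

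The set difference in OboxA1 was compared with that in control, as an interaction. Each set A mean is 1 library, so a difference between the conditions cannot be told apart from what is peculiar to OboxA1 replicate 3 or control replicate 1. The set A libraries are assumed to vary like the set B pairs, the only replicates (2 residual degrees of freedom). The edgeR fit also moderates the spread of each gene with that of all genes, so each p rests in part on borrowed spread. The sets were chosen from these same values. On these terms, by edgeR's quasi-likelihood test with Benjamini-Hochberg adjustment, 2117 genes (15.1%) passed, with the difference larger in OboxA1 at 1226 (8.72%) and smaller at 891 (6.34%), where larger means more positive as set A over set B. Before adjustment, 4143 genes had p under 0.05. DESeq2 called 980 genes and a fit over all 15 libraries 614. The set A OboxA1 library also held the fewest Obox6 reads (2009, against 5956 and 4057 in set B), and the part of this in the interaction was not tested.

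Mmp3 (stromelysin), a matrix metalloprotease, had 103 CPM in OboxA1 and 93.5 CPM in control of set A, against 47.6 and 51.8 CPM in OboxA1 and 168 and 175 CPM in control of set B. The difference between the sets was 1.06 in OboxA1 and -0.88 in control, an interaction of 1.94 (adjusted p = 1.47e-08, edgeR). In set A OboxA1 and control were close together, and in set B OboxA1 was below control. The collagenase Mmp13 had 41.5 CPM in OboxA1 and 33.97 CPM in control of set A, against 5.98 and 5.25 CPM in OboxA1 and 36.2 and 32.1 CPM in control of set B (interaction 2.88, adjusted p = 2.11e-08, edgeR), and only the set B OboxA1 libraries were low. The growth factor Ereg of the EGF family had 128 CPM in OboxA1 and 125 CPM in control of set A, against 117 and 126 CPM in OboxA1 and 278 and 292 CPM in control of set B (interaction 1.27, adjusted p = 6.91e-07, edgeR). Here the set A control library was at the level of the OboxA1 libraries. The EGF family growth factor Hbegf (1.19) and Apol8 (3.47) also had larger differences in OboxA1.

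Among genes with a smaller difference in OboxA1, Ddit4 and Hes1 had low levels in the set B control libraries. Ddit4, an inhibitor of mTOR signalling, had 53.5 CPM in OboxA1 and 57.4 CPM in control of set A, against 50.4 and 45.2 CPM in OboxA1 and 21.4 and 19.6 CPM in control of set B (interaction -1.32, adjusted p = 5.27e-06, edgeR). The Notch target Hes1 had 49.5 CPM in OboxA1 and 43.5 CPM in control of set A, against 48.1 and 46.6 CPM in OboxA1 and 20.2 and 18.97 CPM in control of set B (interaction -1.09, adjusted p = 1.18e-05, edgeR). In both, the other 4 libraries lay close together. Snai1, a repressor of epithelial genes (-1.07), Id3, an inhibitor of helix-loop-helix factors (-0.88), and Zfp36, an mRNA decay factor (-1.03), passed with them. A smaller difference can be a weaker rise in set A, as for Hoxc6 (0.82 in OboxA1 and 1.87 in control). It can also be a deeper fall in set A, as for Hoxd13 (-2.22 in OboxA1 and -1.43 in control).

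By list, 24 of 36 Hox genes passed with a smaller difference in OboxA1 (6.34% of all genes did) and 0 with a larger one, at a median interaction of -0.80. DESeq2 likewise gave 0 larger ones, as did edgeR's p before adjustment (0 under 0.05), while the smaller ones numbered 10 by DESeq2 and 15 in the fit over 15 libraries. Of 40 immediate-early genes, which respond to growth factors within minutes, 21 passed with a larger difference in OboxA1 (8.72% of all genes did) and 6 with a smaller one (2 over 15 libraries). Egr2 had 55.2 CPM in OboxA1 and 20.7 CPM in control of set A, against 20.9 and 18.4 CPM in OboxA1 and 26.1 and 25.2 CPM in control of set B (interaction 1.80, adjusted p = 6.91e-07, edgeR), and its set A OboxA1 library stood above the other 5. Myc had an interaction of 1.26. Of 25 cholesterol synthesis genes, 19 passed with a smaller difference in OboxA1, as did 20 of 54 mitosis genes and 12 of 24 smooth muscle genes. Over 15 libraries these numbered 11, 2 and 1, and by DESeq2 12 cholesterol and 10 mitosis genes passed. Mitosis genes passing numbered 31 when control replicate 2 was left out and 10 when OboxA1 replicate 2 was. The mitotic kinase Plk1 had 63.8 CPM in OboxA1 and 102 CPM in control of set A, against 74.2 and 84.3 CPM in OboxA1 and 82.7 and 85.8 CPM in control of set B (interaction -0.59, adjusted p = 0.00132, edgeR), with the set A control library highest and the set A OboxA1 library lowest.

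**Figure D5:**
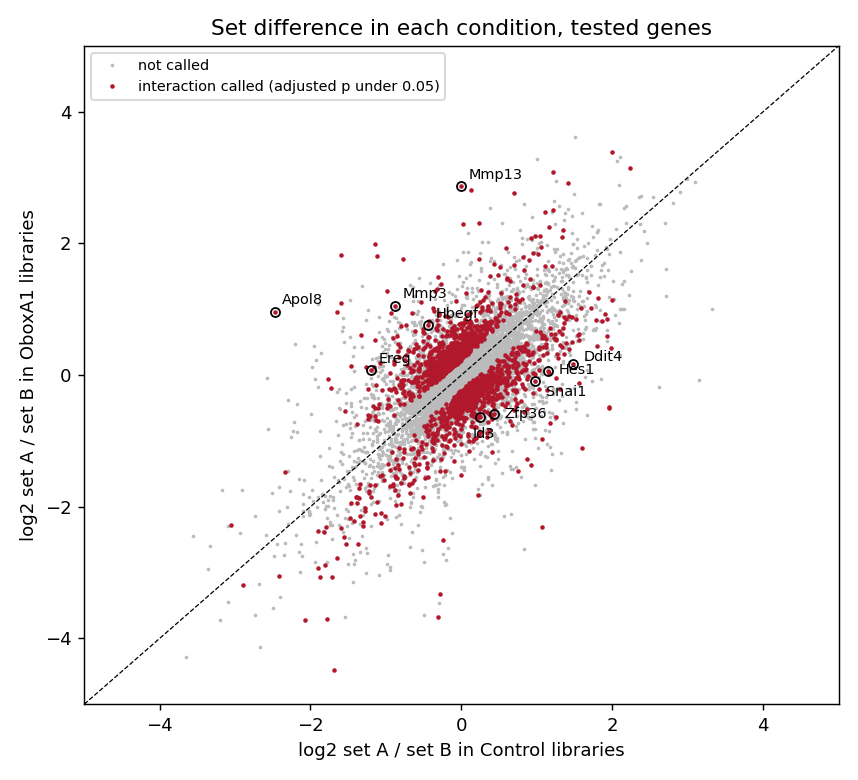
Log2 difference of set A over set B (log2 CPM, prior count 2) in the control libraries (horizontal axis) and in the OboxA1 libraries (vertical axis) for 14063 genes (red, the 2117 genes called by the interaction test; circles, the 10 named genes; dashed line, equal differences). Across genes the 2 differences had Pearson's r of 0.62 and Spearman's rho of 0.46. The sets were chosen from these same values and the normalisation was in common, so this likeness is in part a result of the choice.

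In both conditions 474 genes passed 2-fold between the sets in the same direction and 15 in opposite directions, out of 1054 that passed in OboxA1 and 904 in control. Because the sets were chosen from these same values, agreement between the conditions is in part a result of that choice. Of the 781 counted genes, 139 (17.8%) also passed the interaction test, against 15.1% of all genes.

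The contrast of OboxA1 with the empty vector depended on whether the sets were modelled. With a term for set, 936 genes were higher in OboxA1 (6.66%) and 605 lower (4.30%) by edgeR's quasi-likelihood test (adjusted p under 0.05, with the study's minimum fold change). Without that term, the same 6 libraries gave 50 genes higher and 18 lower. The term was chosen from these same values, so the counts describe how the contrast moves with the model and are no independent support for the genes called. The count with the term also moved with single libraries, to 472 higher and 260 lower without OboxA1 replicate 1, to 545 and 370 without control replicate 2 and to 440 and 265 without control replicate 3. It was 1533 and 996 without OboxA1 replicate 3, and 1531 and 992 without control replicate 1.

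The other 9 libraries lay near one set or the other at the counted genes. In the CrxOS libraries, 88.7% to 91.8% of the 781 counted genes were nearer the mean of set A than that of set B, and in the OboxA4 and OboxA7 libraries 5.63% to 8.96% were. Penk had 202, 187 and 141 CPM in CrxOS libraries, 1168, 1247 and 1213 CPM in OboxA4 libraries and 884, 935 and 752 CPM in OboxA7 libraries. Hoxd13 had 35.6, 32.2 and 36.8 CPM in CrxOS libraries, 160.3, 171 and 171 CPM in OboxA4 libraries and 157, 154 and 158 CPM in OboxA7 libraries. For both genes the CrxOS levels were close to those of set A and the other 6 close to those of set B. Trim30a had 99.6, 104 and 131 CPM in CrxOS libraries, 51.4, 47.7 and 52.8 CPM in OboxA4 libraries and 51.5, 49.3 and 47.3 CPM in OboxA7 libraries. All libraries of each of these conditions lie on one side, so the transfected gene and the set cannot be told apart in them.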

How the data were processed

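RNA was sequenced from sorted mouse embryonic fibroblasts, 15 libraries in all, of which the 6 of OboxA1 and the empty vector (labelled Control) were compared. The authors used STAR to align the read pairs to GRCm38/mm10 and featureCounts to assign them to protein-coding genes annotated by NCBI, so the deposited values are whole-number counts, neither scaled nor filtered. Software versions, strand settings and the handling of reads with several matches were not given in the sources used here. This table also gives a gene length, used only to sort genes. Obox6 appears under 2 names with the same counts, and 2 rows with a repeated name were kept under a changed name.

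Sets A and B, the gene lists and the named genes were chosen with earlier results of these data known. Named genes are the 12 with the largest difference in each direction among counted genes with a mean of at least 1 CPM in the higher set, Hox genes, up to 4 counted members of each list, Y-linked genes and the 5 interaction calls of smallest p in each direction. Other names were chosen after their values were seen. The 41 lists comprise 26 of pathways and families and 15 of cell type markers.

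Counts were filtered with filterByExpr and scaled by TMM (edgeR 4.0.16, limma 3.58.1, R 4.3.3). glmQLFit gave the set difference with a term for condition, with the standard error as a description. The interaction used 4 means, 1 for each set and condition, and the OboxA1 contrast a term for set. P-values were adjusted by Benjamini-Hochberg over 14063 genes. At these totals the spread between libraries, not counting error, limits all but the least expressed genes. The fits were tested on simulated data in which all libraries had the same spread for a given gene. That could not show whether a single set A library varies like the set B pairs. Alternatives were other scalings and filters, DESeq2 1.42.0, other thresholds and terms, all 15 libraries, a replicate block and leaving out each library in turn.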

Additional observations from a re-analysis of the deposited data

Results flagged for a closer look

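The 10 genes named here had an interaction between set and condition that passed edgeR's quasi-likelihood test with Benjamini-Hochberg adjustment over all compared genes. With 1 library per condition in set A, the spread comes from the set B replicates, moderated over all genes. A difference between conditions cannot be told apart from what is peculiar to a single library. The difference was larger in OboxA1 for Mmp3 (interaction 1.94, adjusted p = 1.47e-08), Mmp13 (interaction 2.88, adjusted p = 2.11e-08), Hbegf (interaction 1.19, adjusted p = 4.7e-07), Apol8 (interaction 3.47, adjusted p = 6.91e-07) and Ereg (interaction 1.27, adjusted p = 6.91e-07). It was smaller for Id3 (interaction -0.88, adjusted p = 4.22e-06), Ddit4 (interaction -1.32, adjusted p = 5.27e-06), Snai1 (interaction -1.07, adjusted p = 8.32e-06), Hes1 (interaction -1.09, adjusted p = 1.18e-05) and Zfp36 (interaction -1.03, adjusted p = 1.25e-05). Larger means more positive as set A over set B, so it need not be a difference of greater size. Ereg, for example, stood at 0.07 in OboxA1 and -1.19 in control. All of these genes but Ddit4 and Hes1 had opposite signs in the 2 conditions, such as Apol8 at 0.96 in OboxA1 and -2.47 in control. Some values were near 0 (Mmp13 -0.004 in control). No group had 4 or more libraries of 1 condition and set, so single libraries were not screened as outliers.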

How the results depend on the processing

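The set A values rest on 1 library per condition, and their spread is taken from set B. Over 2042 values of 137 named genes under other settings, 1761 stayed within 1 SD of the replicates and 281 moved further, by at most 2.22 (log2). A change of sign was scored only for counted genes, and 0 of their values changed sign. Genes that were not counted can differ in sign between single libraries, as Hoxa6 did (-0.10 in OboxA1 and 1.08 in control). With 2-fold replaced by 1.5-fold, 757 genes were counted higher in set A and 759 lower, and the pairs of libraries differed at a median of 2327 genes between sets and 689.5 within set B (1037 and 217 at 2-fold). Requiring 1 CPM in 2 libraries left 249 genes counted higher, since fewer genes of low level were compared. The interaction was called at 980 genes by DESeq2 (671 larger and 309 smaller in OboxA1) and at 614 over all 15 libraries (357 and 257), or 1056 (592 and 464) with a replicate block added, and the cause was not tested. Leaving out each set B library in turn gave 1428 to 2914 interaction calls (854 to 1650 larger and 571 to 1264 smaller). OboxA1 against the empty vector gave 50 genes higher and 18 lower without a term for set, and 1115 lower with no threshold on the fold change. Leaving out each library in turn gave 440 to 1533 higher and 260 to 996 lower, 372 to 475 counted higher in set A and 403 to 565 lower. Without control replicate 1, 4 Hox genes were counted higher and 7 lower, against 17 and 4.

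Replicate numbers did not follow the sets. Deviations of same-numbered OboxA1 and control libraries from their condition means had r = -0.473, 0.426 and -0.454 for replicates 1, 2 and 3. The set difference is part of these deviations, and numbers 1 and 3 join libraries of different sets. These values therefore cannot show whether the numbers pair the libraries. With a replicate block, 365 genes were counted higher in set A and 393 lower, and 1236 genes were called higher and 752 lower in OboxA1 against the empty vector.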

Other observations

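Counted genes lay on every chromosome, where 2.70% of all genes were counted higher in set A and 2.86% lower. Chromosome 1 had 39 higher and 31 lower of 827 compared, and the X chromosome 6 higher and 19 lower of 470. Both chromosomes were picked after their values were seen, and their departure from the shares over all genes was not tested. On the Y chromosome 2 of 6 compared genes, chosen after their values were seen, were counted higher. They were Gm34192, with 8.09 and 9.94 CPM in set A (OboxA1, control) and 3.43, 3.15, 4.32 and 4.61 CPM in set B (OboxA1, OboxA1, control, control), and Gm32527, below 1 CPM in all 6 libraries. Mest, an imprinted gene of fetal growth, had 23.95 and 20.4 CPM in set A (OboxA1, control) and 97.5, 88.3, 35.3 and 36.2 CPM in set B (OboxA1, OboxA1, control, control) (log2 -1.37), so that in set B OboxA1 was above control. Another imprinted gene, Plagl1, had 67.97 and 77.9 CPM in set A (OboxA1, control) and 139.5, 143, 167 and 188 CPM in set B (OboxA1, OboxA1, control, control) (log2 -1.12). Dusp4, a phosphatase that limits MAP kinase signalling, had 118 and 83.2 CPM in set A (OboxA1, control) and 26.1, 25.2, 33.2 and 32.4 CPM in set B (OboxA1, OboxA1, control, control) (log2 1.79). Perp, a target of p53 in cell adhesion, had 14.1 and 21.9 CPM in set A (OboxA1, control) and 52.5, 55.9, 55.7 and 64.9 CPM in set B (OboxA1, OboxA1, control, control) (log2 -1.69).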
